A study of Mus musculus with 6 samples.

Results

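The immunity-related GTPases are interferon-inducible proteins that bind and hydrolyse GTP, and 9 of their genes, Irgm1, Irgm2, Igtp, Iigp1, Ifi47, Tgtp1, Tgtp2, Gm4841 and Gm4951, are described here in apoptotic osteoblasts of old and young mice. They were taken by symbol from the 29587 gene rows of the deposited table, and all 9 were found. The genes were selected because their values in these libraries differed between the groups, so the difference between old and young in these 9 genes is given as a description, without p-values, and their calls in the fit across all genes are counted but support nothing. Osteoblasts are the cells that lay down bone matrix. Per the labels' protocols, they were grown by osteogenic induction of passaged cells from bone fragments and then killed by ultraviolet light, in the old and the young group alike. The labels give 3 old and 3 young libraries, no agent or allele that sets the groups apart, and no age in weeks or months, and the genotype field reads none. Nothing in them ties a library to an animal or a culture of its own, so p-values here rest on a spread between libraries that may be technical.

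In mice these GTPases form a defence inside the cell. Interferon binding at the cell surface activates transcription factors in the cytoplasm, and the genes are then transcribed from promoters that carry interferon-stimulated response elements or gamma-activated sites. Effector members gather on the vacuoles in which parasites such as Toxoplasma gondii live and disrupt them, while regulatory members sit on the cell's own membranes and hold the effectors in their inactive state.

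Regulatory and effector members are told apart by the first nucleotide-binding loop, where the usual lysine is replaced by methionine in the regulators. The codons of that loop are shown because they sort the 9 genes into the groups used below. They were read from GENCODE M21 transcripts on GRCm38, the same assembly as mm10, and capitals mark the seventh codon of the loop. An ATG codon for methionine was found in Irgm1 (chr11:48866761-48866784, minus strand), Irgm2 (chr11:58219695-58219718, plus strand) and Igtp (chr11:58206275-58206298, plus strand), whose 24 bases were identical.
Irgm1, Irgm2 and Igtp: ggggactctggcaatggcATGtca
Ifi47 (chr11:49095648-49095671, plus strand) had an AAG codon for lysine in a different setting.
Ifi47: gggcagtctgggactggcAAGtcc
Tgtp1 (chr11:48987667-48987690, minus strand) and Tgtp2 (chr11:49059534-49059557, minus strand) shared another version, again with AAG.
Tgtp1 and Tgtp2: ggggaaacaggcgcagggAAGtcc
Iigp1, Gm4841 and Gm4951 also had AAG as the seventh codon, which put 3 genes in the regulatory and 6 in the effector group. The reading frames of the 9 genes held 406 to 423 codons.

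All 9 genes were higher in old apoptotic osteoblasts in every library, with no old value overlapping a young one, and the summed level of the family was 55.1 ± 2.38 RPKM in old and 5.61 ± 1.76 RPKM in young (SD, n = 3 each). RPKM scales the reads of a gene to its length and to the reads of the library. Every old library above every young library was seen in 7.9% of all rows of the table, a background from which nothing is read here because the genes were chosen on this contrast. Among the 3 old libraries the family's sum ranged from 52.6 to 57.3 RPKM, and among the young libraries from 4.15 to 7.56 RPKM. In bulk RNA, more RNA per cell and more cells that express a gene cannot be told apart.

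**Figure D1:**
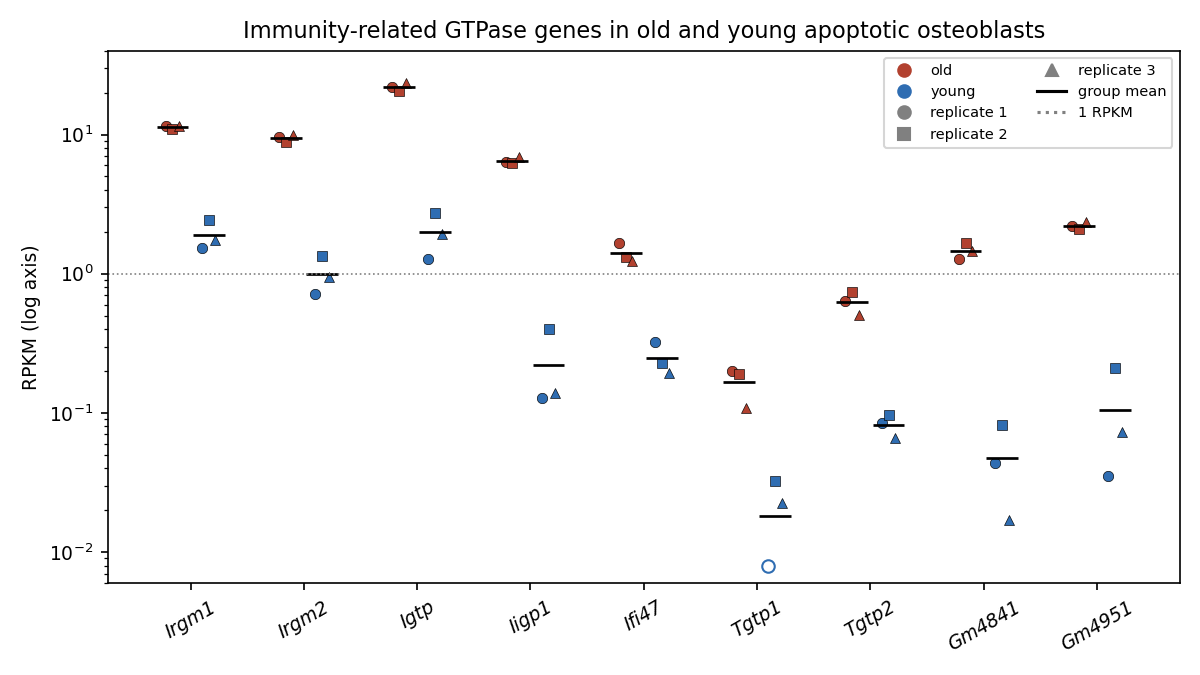
Level of each gene in RPKM (log axis) in the 3 old libraries (red, left) and the 3 young libraries (blue, right), with marker shapes for replicate numbers and a bar at each group mean; the open circle at the bottom is Tgtp1 at 0 in young replicate 1. No gene's groups overlap, and in young libraries 6 of the 9 genes lie below the dotted line at 1 RPKM in every library.

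Igtp, also called Irgm3, is a regulator found on the endoplasmic reticulum and on lipid droplets, and it was the most abundant member. It had 22.1, 20.5 and 23.3 RPKM in old replicates 1, 2 and 3, against 1.28, 2.75 and 1.94 RPKM in young replicates 1, 2 and 3. The lowest old library was 7.46 times the highest young library. The log2 fold change of old over young was 2.97 ± 0.19 (SE) on the log2(RPKM + 1) scale used for all fold changes here, where low levels give too small a change, and the ratio of the mean RPKM was 11.0. The Igtp values rested on 10713 reads over the 3 old and 925 reads over the 3 young libraries, as recovered from RPKM.

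Irgm1, a regulator found on Golgi and lysosomal membranes and needed in mice for resistance to several intracellular bacteria, was next. Its level was 11.4, 11.0 and 11.5 RPKM in old libraries, against 1.54, 2.43 and 1.73 RPKM in young libraries. Old libraries differed among themselves by a coefficient of variation of 2.24%, the smallest of the 9 genes, and young libraries by 24.7%. The log2 fold change was 2.10 ± 0.13 (SE) and the ratio of mean RPKM 5.95.

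Irgm2, the Golgi regulator, had 9.59, 8.82 and 9.98 RPKM in old libraries and 0.718, 1.33 and 0.945 RPKM in young libraries. It was the only regulator with young libraries under 1 RPKM, in 2 of 3. Its log2 fold change was 2.40 ± 0.13 (SE), and its mean RPKM was 9.49 times as high in old as in young.

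The effector Iigp1, also called Irga6, is a GTPase that assembles on the vacuole of Toxoplasma in mouse cells. It had 6.39, 6.23 and 6.86 RPKM in old libraries, against 0.128, 0.400 and 0.139 RPKM in young libraries. Young replicate 2 stood well above the other young libraries, and even so the lowest old library was 15.5 times as high. The log2 fold change was 2.62 ± 0.11 (SE), and the mean RPKM in old was 29.2 times that in young. Only 159 reads stood behind the young values, against 4881 reads in old libraries.

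Gm4951 and Gm4841, which RefSeq also lists as Ifgga2 and Ifgga3, resembled Iigp1 in their low young values. Gm4951 had 2.19, 2.08 and 2.36 RPKM in old libraries and 0.0350, 0.209 and 0.0730 RPKM in young libraries. Gm4841 had 1.27, 1.66 and 1.46 RPKM in old libraries and 0.0434, 0.0817 and 0.0170 RPKM in young libraries. Both were thus close to the limit of counting in young cells, with 65 reads for Gm4951 and 30 reads for Gm4841 over 3 libraries. The ratios of mean RPKM, 20.9 for Gm4951 and 30.9 for Gm4841, carry the counting error of those few reads, and on the log2(RPKM + 1) scale the changes were 1.54 ± 0.09 (SE) for Gm4951 and 1.23 ± 0.08 (SE) for Gm4841.

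Ifi47, also called Irgd, is an effector that also reaches Toxoplasma vacuoles in mouse cells, and its fold change was the smallest among the genes that passed the filter. Old libraries had 1.66, 1.32 and 1.23 RPKM, against 0.324, 0.229 and 0.195 RPKM in young libraries. The ratio of mean RPKM was 5.63, and the log2 fold change was 0.94 ± 0.09 (SE). It departed from the other genes in its order among libraries, being highest in replicate 1 of each group. In the authors' gene model Ifi47 shared 111 exon bases with the olfactory receptor gene Olfr56 on the same strand and 106 exon bases with Gm12188 on the opposite strand. Whether counting used strand is not given in the sources used here, so reads from these bases cannot be assigned with certainty.

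Tgtp1 and Tgtp2, both called Irgb6, are T-cell-specific GTPases by name and vacuole-binding effectors by function, and they were the least abundant. Tgtp2 had 0.632, 0.740 and 0.502 RPKM in old libraries and 0.0839, 0.0965 and 0.0657 RPKM in young libraries. Tgtp1 had 0.199, 0.190 and 0.108 RPKM in old libraries, against 0, 0.0322 and 0.0226 RPKM in young libraries. Neither gene reached 1 RPKM in any library, so neither passed the filter of at least 1 RPKM in at least 3 libraries. The 0 of young replicate 1 allows up to 0.0144 RPKM, the value of 3 reads, for counting error only. The copies are nearly the same gene: their reading frames were 99.7% identical over the longer one, and 76.8% of all 100-base windows of the Tgtp2 transcripts occurred in Tgtp1 as well. How reads that match both copies were treated is not given in the sources used here, so the split between Tgtp1 and Tgtp2 is uncertain, and so is the level of each.

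Of the 9 genes, 7 passed the expression filter, and 4 of these (Iigp1, Ifi47, Gm4841 and Gm4951) passed through the old libraries alone, which fixed their direction. All 7 were called higher in old by limma at a Benjamini-Hochberg adjusted p under 0.05, and none lower. Over all 12015 genes tested, 1.47% were called higher and 0.0999% lower. The median log2 fold change of the 7 genes was 2.10, and that of all tested genes was 0.01. These counts follow from how the genes were chosen and carry no weight as evidence.

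Libraries were not equally close to their groups over all genes, and young replicate 1 stood apart. Its log2 values correlated at r = 0.949 and 0.962 across genes with the other young libraries, which correlated at 0.996 with each other, and old libraries correlated at 0.995 to 0.997. Depth was 75456146 to 84535939 recovered reads per library in old and 64881180 to 82917726 in young. Without young replicate 1, 13.2% of all tested genes were called higher and 19.4% lower. The summed family level was 9.82 times as high in old as in young with all libraries and 8.69 times as high without young replicate 1. The osteoblast label was checked on 10 marker genes, whose summed level was 3317 to 3409 RPKM in old and 2387 to 3479 RPKM in young libraries. Alpl and Bglap averaged under 1 RPKM in both groups, Spp1 was called higher in old and Sp7 lower, and both of those calls were lost when any old library or young replicate 3 was left out, the Spp1 call also without young replicate 2. Without young replicate 1 all 8 tested markers were called, Spp1 and Dmp1 higher and Col1a1, Col1a2, Runx2, Sp7, Ibsp and Postn lower.

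Most markers of other cells that use these GTPases were low. Of 12 markers of macrophages and other blood cells, 11 were in the table and summed to 9.23 to 10.6 RPKM in old and 8.29 to 9.60 RPKM in young libraries, most of it from Lyz2 (8.14 ± 0.512 RPKM in old, 7.30 ± 0.762 RPKM in young, SD, n = 3 each). Cd68 averaged 0.859 RPKM in old and 0.761 RPKM in young, Cd14 0.559 and 0.422 RPKM, and Csf1r 0.455 and 0.479 RPKM. These levels lay above the young mean of Ifi47 at 0.249 RPKM. The pan-leukocyte gene Ptprc averaged 0.000451 RPKM in old and 0.000938 RPKM in young, and the macrophage gene Adgre1 0.00254 RPKM in old and 0 in young. Markers of T and NK cells summed to 0 to 0.0446 RPKM in old and were at 0 in young, and endothelial markers to 0.119 to 0.166 RPKM in old and 0.110 to 0.223 RPKM in young. Of the 11 blood-cell markers, 0 had old and young ranges that stood apart.

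The order of the genes by level differed in detail between old and young libraries. In old libraries it ran Igtp, Irgm1, Irgm2, Iigp1, Gm4951, Gm4841, Ifi47, Tgtp2 and Tgtp1, and of all neighbours in that order only Gm4841 and Ifi47 had ranges that overlapped. Young libraries ran Igtp, Irgm1, Irgm2, Ifi47, Iigp1, Gm4951, Tgtp2, Gm4841 and Tgtp1. There the ranges of Igtp and Irgm1 overlapped, as did those of every neighbouring pair from Ifi47 down, so that only Irgm2 stood clear of the genes on both sides. Igtp exceeded Irgm1 by a factor of 1.94 ± 0.0873 in old and 1.03 ± 0.169 in young (SD, n = 3 each). In young replicate 1 the order was turned, with Igtp at 0.834 times the level of Irgm1. The corresponding ratio of Irgm2 to Irgm1 was 0.837 ± 0.0352 in old and 0.520 ± 0.0454 in young.

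The makeup of the family shifted with its level. Regulatory genes held 77.5 ± 0.714% of the summed RPKM in old and 87.1 ± 2.56% in young (SD, n = 3 each), and no old library reached the lowest young library at 85.2%. Effector genes summed to 12.4 ± 0.153 RPKM in old and 0.726 ± 0.285 RPKM in young, a ratio of 17.04, whereas the regulators summed to 42.7 ± 2.23 RPKM in old and 4.89 ± 1.51 RPKM in young, a ratio of 8.75. The effector ratio was carried by Iigp1, Gm4841 and Gm4951, whose own ratios of mean RPKM were 29.2, 30.9 and 20.9. The effectors Ifi47, Tgtp2 and Tgtp1, at 5.63, 7.61 and 9.09, did not exceed the regulator Igtp at 11.0. Effectors as a group therefore did not differ from regulators in a uniform way. Iigp1 took 11.8 ± 0.229% of the family in old and 3.70 ± 1.39% in young. Irgm1 took the opposite course, with 20.5 ± 0.484% in old and 34.3 ± 2.49% in young. The shares of Irgm2 were close, at 17.2 ± 0.343% in old and 17.8 ± 0.574% in young. These shares come from the contrast on which the genes were chosen and were not tested.

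**Figure D2:**
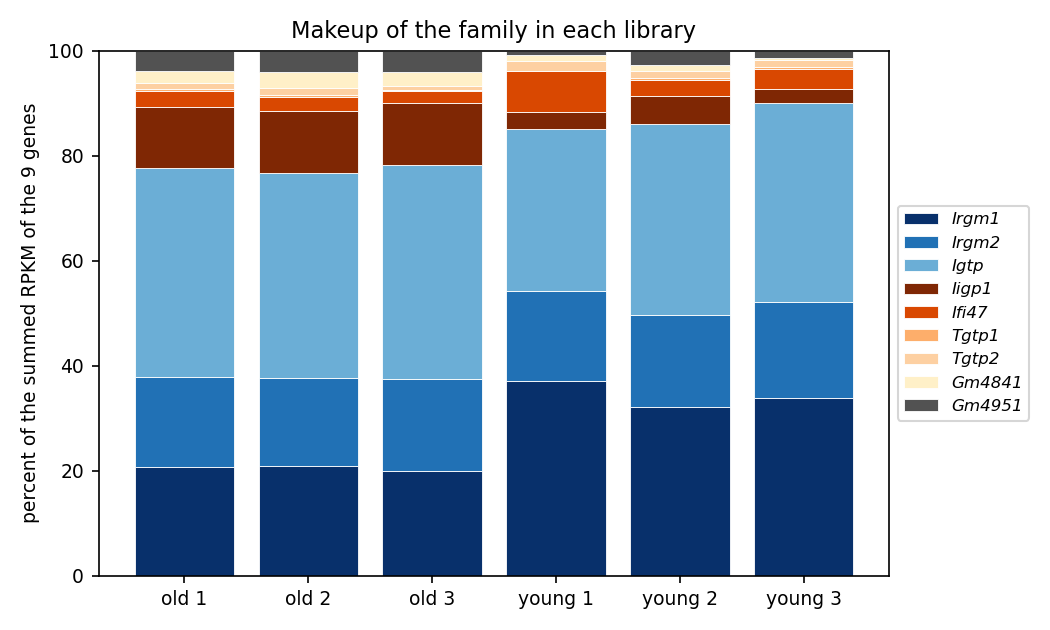
Share of each gene in the summed RPKM of the 9 genes, in percent, for the 3 old libraries (left) and the 3 young libraries (right), with regulatory genes in blue at the bottom and effector genes above them. Irgm1 holds at most 20.9% in old libraries and at least 32.1% in young libraries, and Iigp1 holds 11.5 to 12.0% in old and 2.71 to 5.30% in young libraries.

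Old libraries were closer to each other than young libraries for 8 of the 9 genes, all but Tgtp2, relative to the group mean. The share of all genes with this pattern was not counted, so it is not read as particular to these genes. Over all tested genes, old libraries correlated at 0.995 to 0.997 with each other. Young replicate 1 correlated at 0.949 and 0.962 with the other young libraries, which correlated at 0.996. Coefficients of variation between libraries were 2.24 to 30.2% in old and 18.9 to 90.5% in young. Young replicate 2 was the highest young library in 8 of the 9 genes, Ifi47 being the exception, while over all rows of the table young replicate 2 was highest in 37.6%. That share includes rows at 0 in every young library. Among tested genes young replicate 2 was highest in 6 of the 7 GTPase genes and in 45.3% of all 12015. Gm4951 in young replicate 2 reached 1.98 times its young mean, and Iigp1 reached 1.80 times. Without young replicate 2 the ratio of mean RPKM, old over young, moved to 48.5 for Iigp1, 48.4 for Gm4841 and 41.0 for Gm4951. The other young libraries gave no common order: young replicate 1 was lowest for the 3 regulators, Iigp1, Gm4951 and Tgtp1, and young replicate 3 for Ifi47, Tgtp2 and Gm4841. Among tested genes young replicate 1 was lowest in 5 of the 7 GTPase genes and in 6869 of all 12015.

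**Figure D3:**
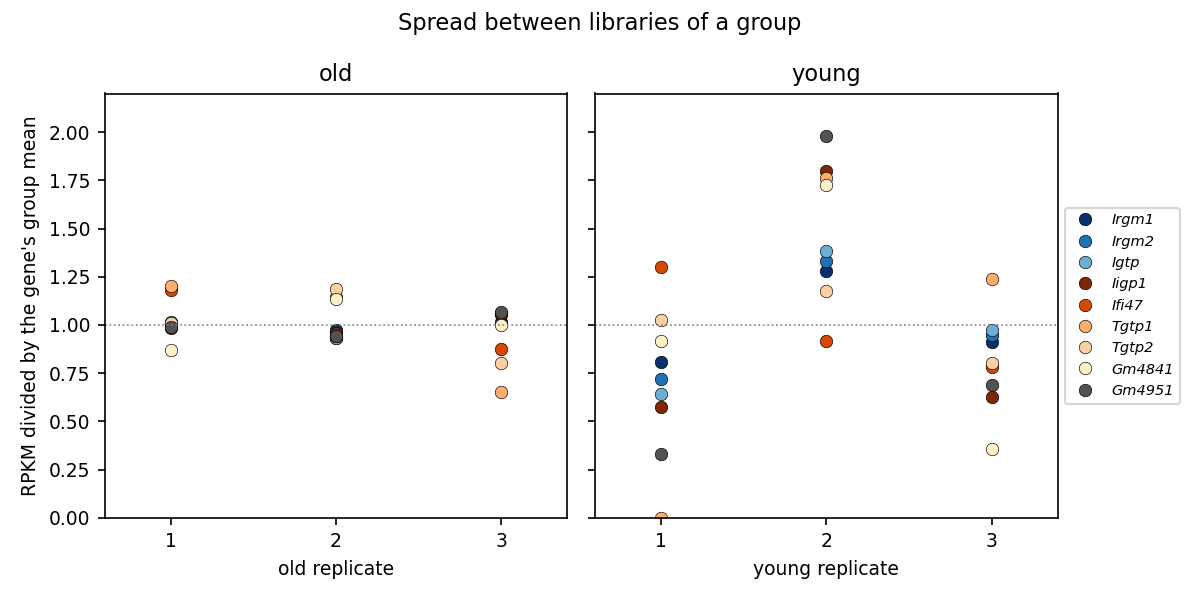
Level of each gene divided by the mean of its own group, for the 3 old libraries (left panel) and the 3 young libraries (right panel); the dotted line is the group mean. Old libraries stay between 0.652 and 1.20 times the mean, and young libraries between 0 (Tgtp1 in young replicate 1) and 1.98 times.

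The promoter windows of the family, 250 bases before to 50 bases after the gene start in RefSeq's table for GRCm38.p6, were searched because the windows were not used in choosing the genes. Windows were matched for 6 of the 9 genes: Irgm1, Irgm2, Igtp, Ifi47, Tgtp1 and Tgtp2. The interferon-stimulated response element was searched as GAAANNGAAA and the gamma-activated site as TTCNNNGAA, where N is any base, on both strands. In the stretches below, written in the direction of transcription, capitals mark the matches. Irgm1 (chr11:48871415-48871470, minus strand) held a pair of overlapping response-element matches, which share 4 bases and begin 30 and 24 bases before the gene start, and no gamma-activated match.
Irgm1: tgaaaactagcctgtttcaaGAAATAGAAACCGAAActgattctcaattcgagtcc
The other 4 windows with a match held a gamma-activated match followed by a response-element match. They are Irgm2 (chr11:58214882-58214942, plus strand), Igtp (chr11:58199491-58199551, plus strand), Tgtp1 (chr11:48992294-48992354, minus strand) and Tgtp2 (chr11:49064253-49064313, minus strand).
Irgm2: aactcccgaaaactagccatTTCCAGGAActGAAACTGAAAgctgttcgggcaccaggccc
Igtp: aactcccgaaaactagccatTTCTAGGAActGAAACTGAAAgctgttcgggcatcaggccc
Tgtp1: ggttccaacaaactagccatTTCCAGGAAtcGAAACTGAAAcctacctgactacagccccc
Tgtp2: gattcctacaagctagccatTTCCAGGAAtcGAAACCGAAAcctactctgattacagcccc

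In Irgm2, Igtp, Tgtp1 and Tgtp2 the response-element match began 11 bases after the gamma-activated match began, and the gamma-activated match began 45 to 88 bases before RefSeq's gene start. RefSeq's starts are not always those of the deposited gene models. The Irgm2 window, chr11:58214727-58215026, lay inside the deposited Irgm2 gene, which begins at 58199618. Of all 32851 windows in the table, 3.44% held GAAANNGAAA, 8.30% held TTCNNNGAA, and 0.113% held both with starts within 20 bases. Among the 6 GTPase windows, 5 held the first, 4 the second and 4 both. These 4 windows are not independent of each other: Irgm2 and Igtp were 81.3% identical over the window and Tgtp1 and Tgtp2 73.0%. The Ifi47 window held no match of either motif, which says only that these letters are not in these 300 bases. The letters are a description of the sequence and not evidence that a factor binds there.

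Apart from Tgtp1 and Tgtp2, the closest pair of reading frames was Iigp1 and Gm4951, 86.3% identical over the longer frame. Among the regulators, Irgm2 and Igtp were 68.8% identical, Irgm1 and Igtp 65.6%, and Irgm1 and Irgm2 64.9%. Irgm2 and Igtp also shared 162 exon bases on the same strand in the authors' gene models, 8.01% of Igtp and 4.39% of Irgm2, and reads from these bases could be counted for either gene. No 100-base window of the transcripts of Irgm1, Iigp1 or Gm4951 occurred in another gene.

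The 9 genes lay in 3 clusters on mm10, as given by the deposited exon positions. The first held Irgm1 (chr11:48861968-48871683, minus strand), Tgtp1 (chr11:48985327-48994172, minus strand), Tgtp2 (chr11:49057194-49064206, minus strand) and Ifi47 (chr11:49076587-49096974, plus strand), a span of 235 kb. Further along the same chromosome, Igtp (chr11:58199556-58207591, plus strand) and Irgm2 (chr11:58199618-58222782, plus strand) lay within 23.2 kb. Gm4951 (chr18:60212080-60247820, plus strand), Gm4841 (chr18:60268301-60273267, minus strand) and Iigp1 (chr18:60376029-60392627, plus strand) spanned 181 kb.

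Genes that surround the clusters were looked at in the same fit. Within the clusters and 250 kb on either side lay 5 further family genes that are described apart. The other 41 genes there, of which 23 were tested, are called neighbours. They were set apart from the family by symbol alone, so copies of family genes under other names may be among them. By limma, 0 of the 23 tested neighbours were called in either direction, against 1.47% of all tested genes higher and 0.0999% lower. At those shares, 0 calls among 23 genes say nothing particular about the neighbours. Of the 23, 3 had an unadjusted limma p under 0.05 (Psme2b, Snord95 and Smim3, all higher), and voom on the recovered reads also called 0. Their median log2 fold change was 0.04. The 4 neighbours of highest level were Rack1, a ribosome-associated scaffold (80.0 ± 2.39 RPKM in old, 77.9 ± 22.4 RPKM in young), Snord96a, a small nucleolar RNA (76.3 ± 4.08 RPKM in old, 68.0 ± 6.17 RPKM in young), Gm12184 (28.6 ± 0.979 RPKM in old, 36.7 ± 17.2 RPKM in young) and Cnot8, a deadenylase subunit (28.2 ± 0.866 RPKM in old, 28.7 ± 0.423 RPKM in young; SD, n = 3 each). Without young replicate 1, 5 of the neighbours were called higher (Rack1, Psme2b, Mrpl22, Smim3 and Synpo) and 2 lower (Trim41 and Zfp672). Of all tested genes, 13.2% were then called higher and 19.4% lower.

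Some neighbours, at low and at higher levels, were higher in every old library. Of the 41, 8 had every old library above every young library, against 7.9% of all rows, and 2 the reverse, against 6.37% of all rows. Olfr56, named here after its values were seen, had 0.709, 0.669 and 0.860 RPKM in old libraries and 0.105, 0.0625 and 0.0771 RPKM in young libraries, and its exons run from before Tgtp1 to beyond Ifi47 and share the 111 bases given above. Gm12185, which shares 223 exon bases on the same strand with Tgtp1, had 0.133, 0.128 and 0.0842 RPKM in old libraries and 0.00552, 0.0231 and 0.0173 RPKM in young libraries. Psme2b, a copy of a proteasome activator subunit gene, had 6.68, 7.89 and 5.83 RPKM in old libraries and 4.64, 2.59 and 3.17 RPKM in young libraries, with a log2 fold change of 0.82 ± 0.19 (SE) and a limma Benjamini-Hochberg adjusted p of 0.142.

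**Figure D4:**
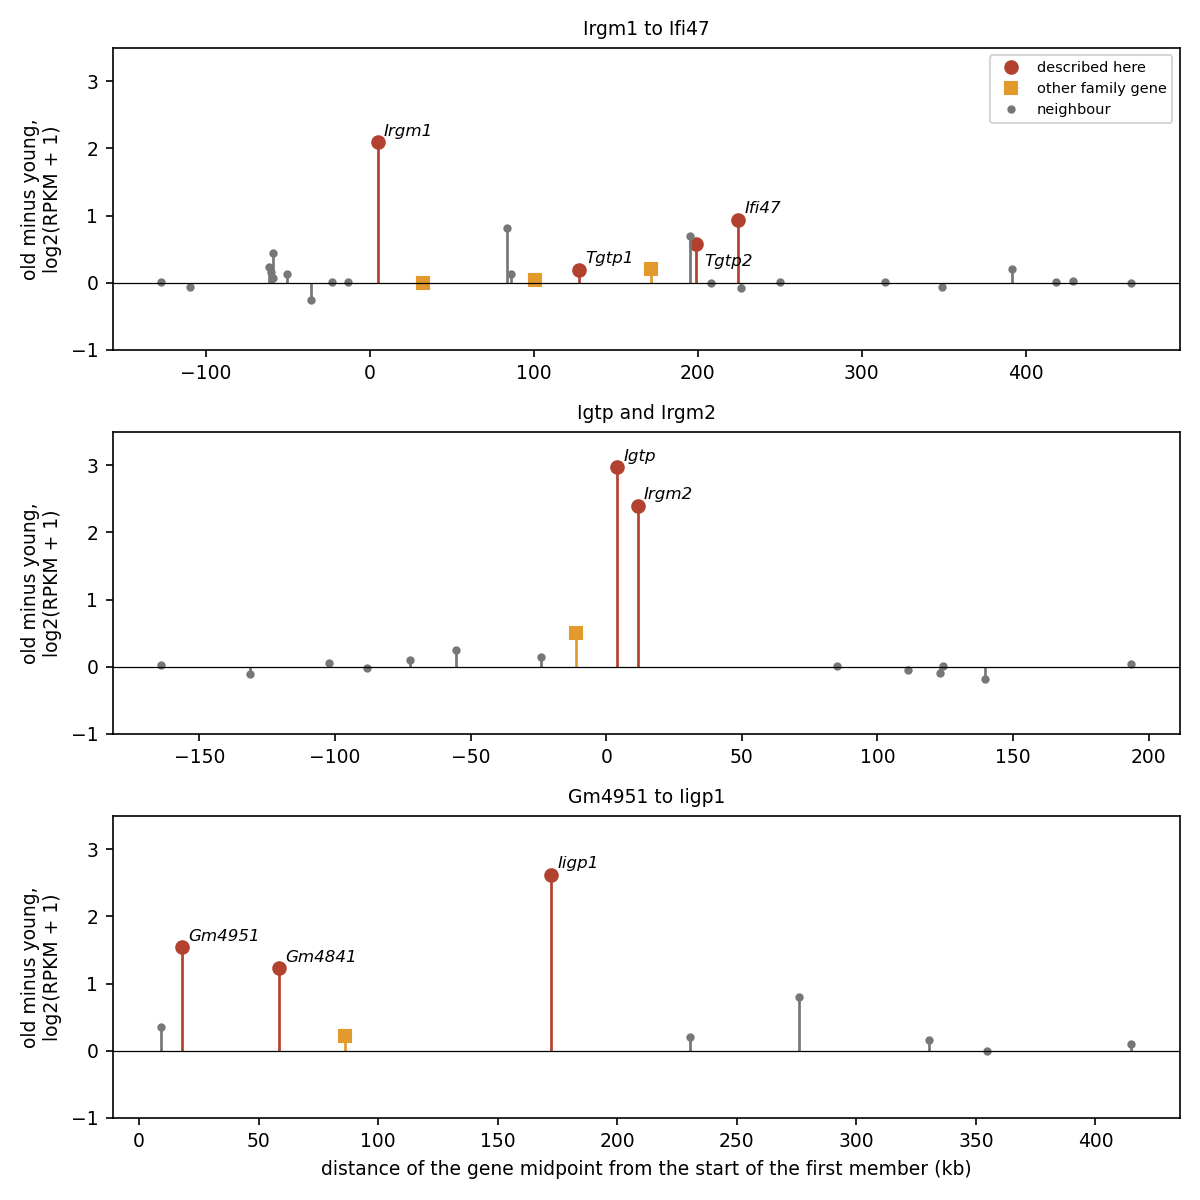
Old minus young difference of mean log2(RPKM + 1) for each gene in the 3 clusters and 250 kb around them, against the distance of the gene's midpoint from the start of the first of the 9 genes in the cluster (kb). The 9 genes are red, other immunity-related GTPase genes are orange squares and the 41 remaining genes are grey; among the grey genes the highest difference is that of Psme2b at 0.82.

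Further family genes, from a list of symbols outside the 9, were at low levels. Of 7 in the table only Irgq, a divergent member, was tested. It had 1.09 ± 0.0336 RPKM in old and 1.22 ± 0.349 RPKM in young (SD, n = 3 each), with 0 calls by limma, 0 genes at an unadjusted p under 0.05 and 0 calls by voom. Without young replicate 1 Irgq was called lower. Of the untested genes, 9930111J21Rik2 had 0.411, 0.421 and 0.443 RPKM in old libraries and 0.0395, 0.442 and 0.251 RPKM in young libraries, and its groups overlapped. Gm12250, known as Irgb10, an effector that acts on bacterial membranes, had 0.501, 0.343 and 0.476 RPKM in old libraries and 0, 0 and 0.0568 RPKM in young libraries. F830016B08Rik had 0.136, 0.185 and 0.184 RPKM in old and 0, 0.00782 and 0 RPKM in young libraries. Of the 7, 3 had every old library above every young library, against 7.9% of all rows, and 0 the reverse, against 6.37%. In a fit with no filter on low values, limma called Gm12250 and F830016B08Rik higher in old.

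Among genes of interferon signalling, Stat2, Irf9 and Nlrc5 were higher in old. From a list of 16 interferon ligands, receptors, kinases, factors and restrainers, 15 were in the table and 12 were tested. Limma called 3 higher in old and none lower at a Benjamini-Hochberg adjusted p under 0.05. Stat2 and Irf9 encode parts of the factor that binds interferon-stimulated response elements, and Nlrc5 encodes an activator of class I antigen presentation genes.

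Stat2 had 26.8, 26.6 and 26.2 RPKM in old and 5.40, 6.28 and 5.06 RPKM in young libraries (log2 fold change 2.07 ± 0.10, SE; limma adjusted p = 0.000214). Irf9 had 8.05, 7.82 and 8.43 RPKM in old and 0.927, 1.76 and 1.27 RPKM in young libraries (log2 fold change 1.99 ± 0.14, SE; limma adjusted p = 0.00143). Young replicate 2 was the highest young library for both of these factors, and young replicate 3 for Nlrc5. Of the 12 tested genes of the list, 7 were highest in young replicate 2, against 45.3% of all tested genes. Nothing is read from this order. Nlrc5 passed the filter through old libraries alone, with 1.36 ± 0.0401 RPKM in old and 0.353 ± 0.0465 RPKM in young (SD, n = 3 each), and changed by 0.80 ± 0.07 in log2 (SE), with a limma adjusted p of 0.00239. All 3 calls were kept when any single library was left out, in fits that used the same filtered genes. For Nlrc5 that filter fixed the direction, so its call and its being kept carry no weight as evidence.

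No receptor or kinase gene was called by limma. Of the 12 tested genes of the list, 5 had an unadjusted limma p under 0.05 (Ifngr2, Stat2, Irf1, Irf9 and Nlrc5, all higher). Of the 15 in the table, 6 had every old library above every young library, against 7.9% of all rows. The reverse held for 0, against 6.37% of all rows. Ifngr1, a chain of the interferon-gamma receptor, averaged 14.9 ± 0.444 RPKM in old and 12.6 ± 3.24 RPKM in young (SD, n = 3 each), and Ifnar2, a chain of the type I interferon receptor, 9.04 ± 0.119 RPKM in old and 8.61 ± 1.75 RPKM in young. The kinases Jak1 and Jak2 stood at 14.1 ± 1.28 and 12.1 ± 0.579 RPKM in old, against 13.2 ± 4.90 and 12.0 ± 0.980 RPKM in young. Ifngr2, another chain of the interferon-gamma receptor, is named after its values were seen. It averaged 6.20 ± 0.158 RPKM in old and 4.58 ± 0.924 RPKM in young, without overlap of the groups (limma adjusted p = 0.377). Without young replicate 1, Ifngr2, Ifnar2 and Irf1 were called higher as well, and so were 13.2% of all tested genes. Irf1, a factor at many interferon-gamma targets, is singled out after its values were seen: it had 9.53 ± 0.254 RPKM in old and 6.43 ± 0.708 RPKM in young, with a limma adjusted p of 0.0881. The ligand Ifnb1 was listed at 0.158, 0.141 and 0.0661 RPKM in old libraries, from 10, 8 and 4 reads, and at 0 in all young libraries, where 3 reads would be 0.0482 to 0.0617 RPKM. Ifng was on the list but not among the 15 genes found, so no value is given.

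Genes with which the effectors reach vacuoles were tested as a separate list. In mouse cells the enzymes that conjugate LC3-like proteins are needed for the loading of effectors. All 10 genes of that list were tested and limma called 0, with 1 at an unadjusted p under 0.05 (Gabarapl1, higher) and 0 by voom. The conjugating enzyme Atg3 averaged 69.9 ± 1.56 RPKM in old and 72.5 ± 17.3 RPKM in young, and the LC3-like proteins Gabarap 42.1 ± 0.409 RPKM in old and 37.1 ± 4.49 RPKM in young, Map1lc3a 25.3 ± 2.23 RPKM in old and 26.3 ± 3.48 RPKM in young, and Gabarapl1 27.0 ± 0.495 RPKM in old and 19.7 ± 2.58 RPKM in young (SD, n = 3 each). Without young replicate 1, Atg3, Gabarap and Gabarapl1 were called higher and Atg5 lower.

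Of 3 genes reported at effector-coated vacuoles, where ubiquitin is deposited, 2 were tested and both were called higher. The ubiquitin ligase gene Trim21 had 6.56, 6.27 and 6.99 RPKM in old and 1.28, 2.71 and 1.91 RPKM in young libraries; its log2 fold change was 1.39 ± 0.18 (SE), with a limma adjusted p of 0.0202. Sqstm1, the p62 receptor for ubiquitin-tagged cargo, had 174, 170.3 and 175 RPKM in old and 83.1, 102 and 89.9 RPKM in young libraries (0.91 ± 0.10, SE; limma adjusted p = 0.0109). Both calls were lost when young replicate 3 or any of the 3 old libraries was left out. Traf6, the ubiquitin ligase that was not tested, had 0.690 ± 0.0709 RPKM in old and 0.584 ± 0.193 RPKM in young.

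The guanylate-binding proteins are the other family of interferon-inducible GTPases and act beside the immunity-related GTPases at vacuoles. Of 11 genes, 4 were tested and all 4 were called higher in old (Gbp3, Gbp2, Gbp6 and Gbp7, with log2 fold changes of 4.40, 1.90, 1.61 and 1.05). Gbp6 and Gbp7 reached the filter in old libraries only, so its threshold set their direction, and leaving out young replicate 3 or any old library ended the Gbp7 call. Gbp3 had 59.8, 68.9 and 67.4 RPKM in old libraries and 2.07, 3.11 and 1.46 RPKM in young libraries. The summed guanylate-binding level was 77.3 to 88.0 RPKM in old and 4.35 to 6.57 RPKM in young libraries.

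**Figure D5:**
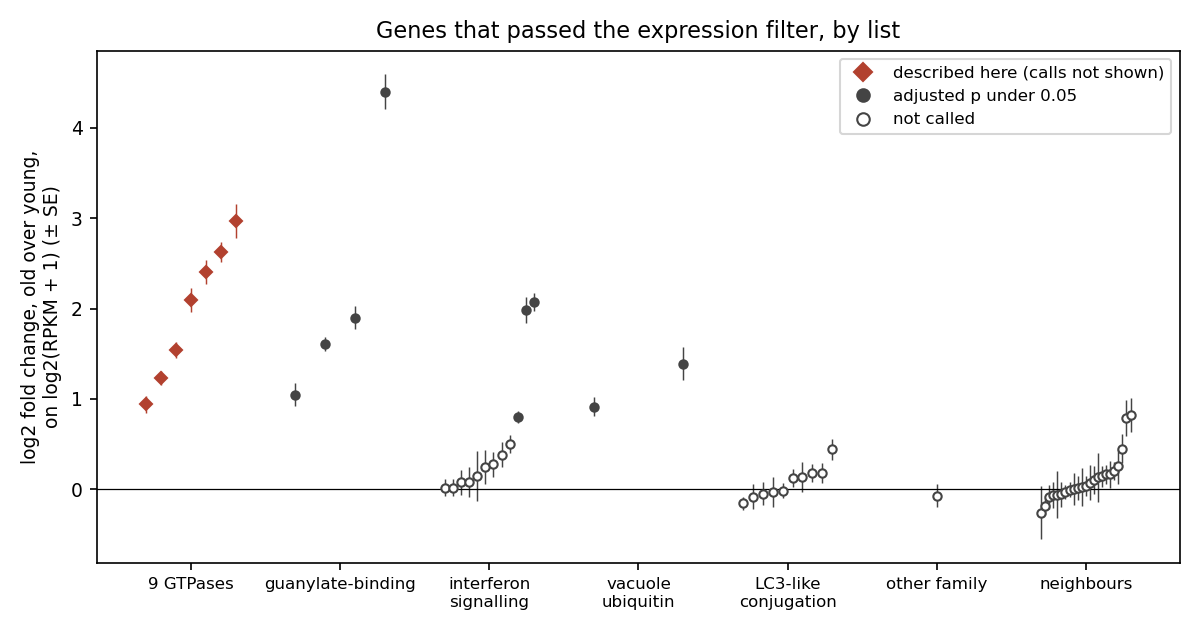
Log2 fold change of old over young on log2(RPKM + 1), with SE from limma, for each gene that passed the filter, by list. Red diamonds are 7 of the 9 GTPase genes, whose calls are not shown; filled circles were called at an adjusted p under 0.05 and open circles were not, so that all 4 tested guanylate-binding genes, 3 of 12 interferon signalling genes and none of the 10 genes for LC3-like conjugation or of the 23 neighbours are filled. Gbp6, Gbp7, Nlrc5 and 4 of the red genes passed the filter through old libraries alone, so that the filter fixed their direction.

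The mean profile of the 7 tested GTPase genes over the 6 libraries, on log2(RPKM + 1) centred per gene, was compared with every other tested gene by Pearson's r. The 5 most alike were Oasl2, a protein related to the oligoadenylate synthetases (r = 0.9996), Slfn8 of the Schlafen family (r = 0.9995), the guanylate-binding protein gene Gbp6 (r = 0.9994), Chrnb2, a nicotinic acetylcholine receptor subunit (r = 0.9994) and Mx1, an antiviral GTPase (r = 0.9991). The 6 points share the difference between the groups, which sets most of r, and 82 genes reached 0.99. All 5 named genes passed the filter through old libraries alone, which fixed their direction. Oasl2 had 12.4, 12.7 and 13.1 RPKM in old libraries and 0.0991, 0.455 and 0.182 RPKM in young libraries. Its order among the young libraries is part of the likeness by which it was picked. Among the GTPase genes themselves, each was compared with the mean of the others: Ifi47 was least alike at r = 0.970, Gm4841 had 0.989, and the other 5 had 0.997 or more.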

How the data were processed

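RNA was sequenced from 3 libraries of old and 3 of young apoptotic osteoblasts, grouped by the developmental stage in the labels. Per the labels' protocols, total RNA was extracted with Trizol and a messenger RNA kit was used. Per the submitters' processing notes, fastp, STAR, HTSeq, edgeR and mm10 were used, and their parameters and versions and the gene annotation used are not stated. The authors deposited RPKM with exon positions and a gene length per row. Multiplied by length, 100% of values came out as whole reads within 0.01. Of genes with 1 to 5 reads, 77.5 to 79.3% had an even number, so the reads are not independent molecules and floors (3 reads, 0.0355 to 0.0462 RPKM in 1 kb) cover counting error only.

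Limma 3.58.1 in R 4.3.3 modelled log2(RPKM + 1) by group alone, with a variance trend, for the 12015 genes that reached 1 RPKM in 3 or more libraries. P-values were two-sided and adjusted by Benjamini-Hochberg over all genes tested. The script was tested on simulated data. Sequences were compared with Biopython 1.88 in Python 3.11.15. A chi-square test of recovered reads between replicates gave at least 9.5 per degree of freedom, so none was a duplicate. A gene of the interferon signalling list is not reported here and is left out of that list's counts. The members and lists were chosen with earlier results of these data known. Genes named were all 9 members and, of each list, called genes up to 4 of smallest p with up to 4 others of highest mean RPKM, and the 5 of most similar profile. Protein sequences were not used here, so codons of transcripts were read in their place. Alternatives covered pseudocounts, filters, scalings, the variance model, voom, a fold threshold, the replicate block and leaving out each library.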

Additional observations from a re-analysis of the deposited data

How the results depend on the processing

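The 9 genes were chosen on this contrast, and Iigp1, Ifi47, Gm4841 and Gm4951 passed the filter through old libraries alone, so their calls below describe the settings and support nothing. All 121 alternative values of the 9 genes' log2 fold changes were above 0. Apart from the fold threshold, Irgm1, Irgm2 and Igtp were called in all 15 alternatives, Iigp1, Gm4841 and Gm4951 in all 14 in which they passed the filter, and Ifi47 in 12 of 14: its call was lost with quantile normalization (0.70) and without young replicate 3 (0.91). With no filter Tgtp2 was called and Tgtp1 was not. Calls of the GTPase genes numbered 7 as reported, 3 with a mean RPKM of at least 5, where fewer genes were tested, and 6 to 7 when a library was left out. A mean of at least 5 also gave 99 genes higher over the whole table (177 as reported), 1 interferon signalling gene (3 as reported), 1 vacuole ubiquitin gene and 2 guanylate-binding genes. With no filter the counts were 1 vacuole ubiquitin gene (Sqstm1), 2 other family genes and 1 neighbour (Olfr56). A log2 fold change of at least 1 left 106 genes higher, 0 lower, 6 GTPase genes (Ifi47 lost), 2 interferon signalling genes and 1 vacuole ubiquitin gene. Leaving out a library gave 80 to 1589 genes higher, 0 to 2329 lower (12 as reported), 3 to 6 interferon signalling genes, 0 to 3 conjugation genes, 0 to 2 vacuole ubiquitin genes, 3 to 4 guanylate-binding genes and 0 to 5 neighbours, with every highest count reached without young replicate 1. Voom on the recovered reads called 162 genes higher and 8 lower.

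With the replicate block, 82 genes were called higher, 0 lower, 7 GTPase genes, 0 vacuole ubiquitin genes and 3 guanylate-binding genes (Gbp7 lost). The labels do not say whether the numbers pair the libraries. Deviations of same-numbered libraries correlated at -0.03, -0.44 and 0.33. These values cannot decide it, with 3 libraries per group and young replicate 1 apart from the other young libraries. The cause of the differences between settings was not tested. Median-of-ratios scaling shifted young replicate 1 by -0.13 and young replicate 2 by 0.09 on the log2 scale and left all 7 calls. Depth limits Tgtp1, Gm4841, Tgtp2 and Gm4951 in young libraries, at 14, 30, 54 and 65 reads.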
